A study of Homo sapiens with 34 samples.

Results

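NKX2-5 shRNA cells and ZEB2 shRNA cells were compared directly at day 10 of cardiac differentiation, using 4 of the 34 RNA-seq libraries of the series. The members were fixed by the labels and by row order in the deposited table: NKX2-5 shRNA replicates 1 and 2 were set against ZEB2 shRNA replicates 3 and 4, with 1 row per gene symbol. ZEB2 shRNA replicates 1 and 2 at day 10 were left out of the comparison because their columns hold more rows than there are RefSeq accessions and do not follow them. All cells were H1, an established human embryonic stem cell (ESC) line. Each shRNA was delivered by lentivirus, and 1 shRNA line per gene was kept, the best of those tested by real-time PCR, so that each knockdown stands on a single line. Differentiation was induced in all groups with the GSK3β inhibitor CHIR99021, followed by the Wnt inhibitor IWP2, and insulin was added later to maintain cardiomyocytes (CMs). WT cells were infected with an empty vector or with an shRNA directed at GFP and received the same treatment, and WT replicates 3 and 4 at day 10 were fitted with the 4 libraries to give a control level and to share the estimate of the spread. The 4 libraries of the same lines at day 6 were used to ask whether the difference between the lines had changed by day 10.

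NKX2-5 is a homeobox transcription factor (TF) of the early heart field that activates genes of the contractile apparatus, and ZEB2 is a zinc finger TF that binds E-box sequences and acts in the transition of epithelial cells to mesenchyme. The heart, the first blood cells and the endothelium arise from neighbouring populations of early mesoderm, while the yolk sac and liver endoderm secrete lipoproteins and serum proteins. A cardiac ESC culture can therefore hold cells of each of these lineages, and sequencing of total RNA from the whole culture gives the average over them.

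The 4 compared libraries held between 20153630 and 29549874 counts over 1 row per gene symbol, and the WT libraries 20878272 and 9189943. The NKX2-5 shRNA replicates were further apart than the others: 3181 genes differed more than 2-fold between them, against 443 for ZEB2 shRNA and 1698 for WT, and Pearson's r of their log2 levels across genes was 0.945, 0.989 and 0.973, a description over genes, which are not independent replicates. The series' design text calls the replicates biological, but no label names separate differentiations, so p-values measure the spread between these libraries. Levels are given as CPM, a library's counts scaled to a fixed total with TMM factors, always in the order replicate 1, replicate 2 for NKX2-5 shRNA and replicate 3, replicate 4 for ZEB2 shRNA and WT. In the text, 3 counts in a library, 0.145 CPM on average for NKX2-5 shRNA and 0.112 CPM for ZEB2 shRNA, are taken as the floor, and such limits cover counting error only.

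Each targeted gene was examined first. NKX2-5 (chr5:172659112-172662314, minus strand, GRCh37) was at 0.687 and 3.16 CPM in NKX2-5 shRNA cells, 39.8 and 21.8 CPM in ZEB2 shRNA cells and 108 and 172 CPM in WT cells. It was thus low in both NKX2-5 shRNA libraries, and ZEB2 shRNA replicates 3 and 4 also lay below WT replicates 3 and 4. The log2 difference, NKX2-5 shRNA minus ZEB2 shRNA, was -3.99 ± 0.64 (SE), with an adjusted p of 0.00814 in edgeR's quasi-likelihood test with Benjamini-Hochberg adjustment across every tested gene. Without ZEB2 shRNA replicate 3 it was -3.50 and the adjusted p was 0.0505.

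ZEB2 (chr2:145121931-145278624, minus strand) was at 66.1 and 146 CPM in NKX2-5 shRNA cells, at 55.6 CPM in both ZEB2 shRNA libraries and at 118 and 108 CPM in WT cells. The ZEB2 shRNA libraries had the lowest levels, at about the same value as each other, but NKX2-5 shRNA replicate 1 lay near them. The log2 difference of 0.93 ± 0.34 did not pass the 5% false discovery rate (FDR), with an adjusted p of 0.0891. After the rows of the other ZEB2 shRNA replicates had been matched to accessions by their counts, ZEB2 stood at 27.1 and 29.4 CPM in replicates 1 and 2, and the log2 difference over all replicates was 1.33 ± 0.37 with an adjusted p of 0.0333. NKX2-5 was then at 97.6 and 134.6 CPM in ZEB2 shRNA replicates 1 and 2. In WT replicates 1 to 4 it was at 190, 231.5, 104.9 and 168 CPM. Over all replicates, ZEB2 shRNA and WT therefore overlapped for NKX2-5.

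Of 17004 genes tested, 331 differed at least 8-fold at 1% FDR and are referred to as called. Of these, 128 were higher in NKX2-5 shRNA cells, 0.753% of all genes tested, and 203 were lower, 1.19%. At 5% FDR with no fold threshold, 1791 genes were higher (10.5%) and 1837 were lower (10.8%), and the median log2 difference over all genes was 0.00543. The libraries of the 2 lines did not overlap for 68.2% of all genes tested, and for all 331 called genes. All 331 kept their direction when any 1 library was left out, which follows from the libraries not overlapping and is no separate check. The count depended on which library was left out. Without ZEB2 shRNA replicate 3 or 4, which leaves that line with 1 library and the spread to the other groups, 28 and 72 genes were called and 400 and 511 passed 5% FDR. Without NKX2-5 shRNA replicate 2, 1023 genes were called, and without WT replicate 3 or 4, 64 and 65 were called. For each gene list below, the 2 counts that follow "without ZEB2 shRNA replicate 3 or 4" are those at 5% FDR. Where a count of 2 or more moved by more than 1.5 times without another library, that count is added.

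**Figure D1:**
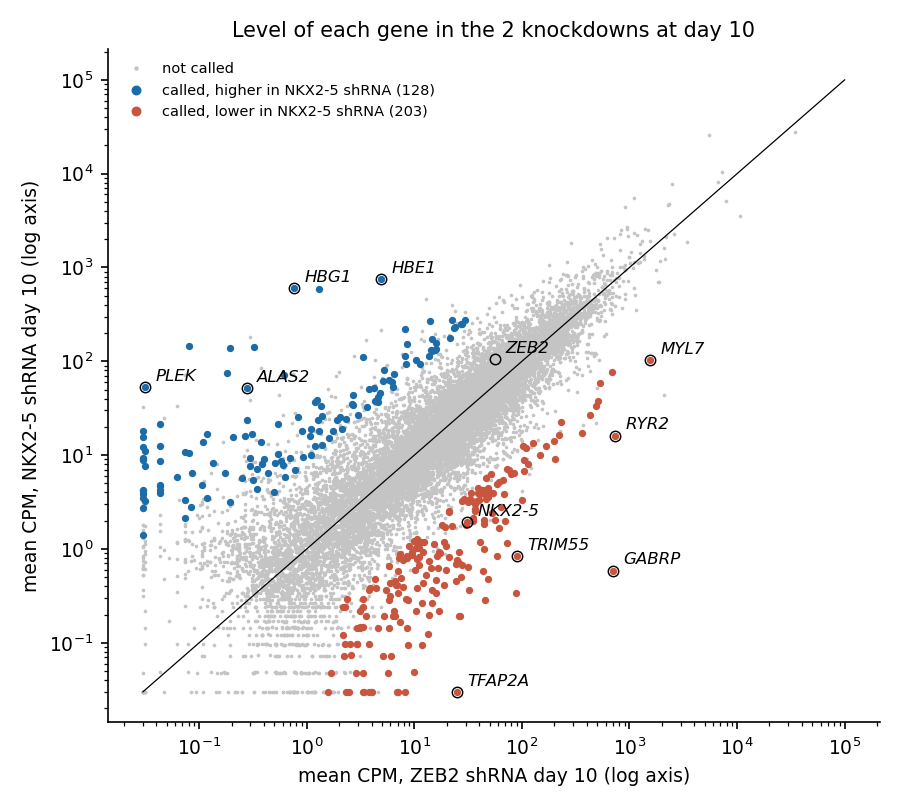
Mean CPM of each of the 17004 tested genes in ZEB2 shRNA cells (x axis) and NKX2-5 shRNA cells (y axis) at day 10, n = 2 libraries each, on log axes with means under 0.03 CPM drawn at 0.03. The 128 genes called higher and 203 called lower in NKX2-5 shRNA cells are coloured, and blood genes such as PLEK, HBE1, HBG1 and ALAS2 lie far above the diagonal while GABRP, TRIM55, RYR2, MYL7 and TFAP2A lie far below it.

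The WT level placed the called genes differently in the 2 directions. Among the 128 called higher in NKX2-5 shRNA cells, the WT mean lay between the lines for 75, below both for 52 and above both for 1. Among the 203 called lower, it lay above both lines for 96, between them for 84 and below both for 23. The last class holds genes that were high in ZEB2 shRNA cells against both other groups, but not all such genes. A WT mean only slightly above that of NKX2-5 shRNA cells counted as between. GABRP was placed there, with means of 0.589 CPM in NKX2-5 shRNA, 703 CPM in ZEB2 shRNA and 2.18 CPM in WT cells. The NKX2-5 shRNA replicates differed in how far they moved: replicate 1 was above replicate 2 in 96 of the 128 called higher but in 52 of the 203 called lower, and in 8271 of the 17004 genes tested.

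Gene lists by role were used to describe what differed, each counted beside the shares over all genes. These lists were drawn up with earlier results of these data known, so their counts are a description.

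**Figure D2:**
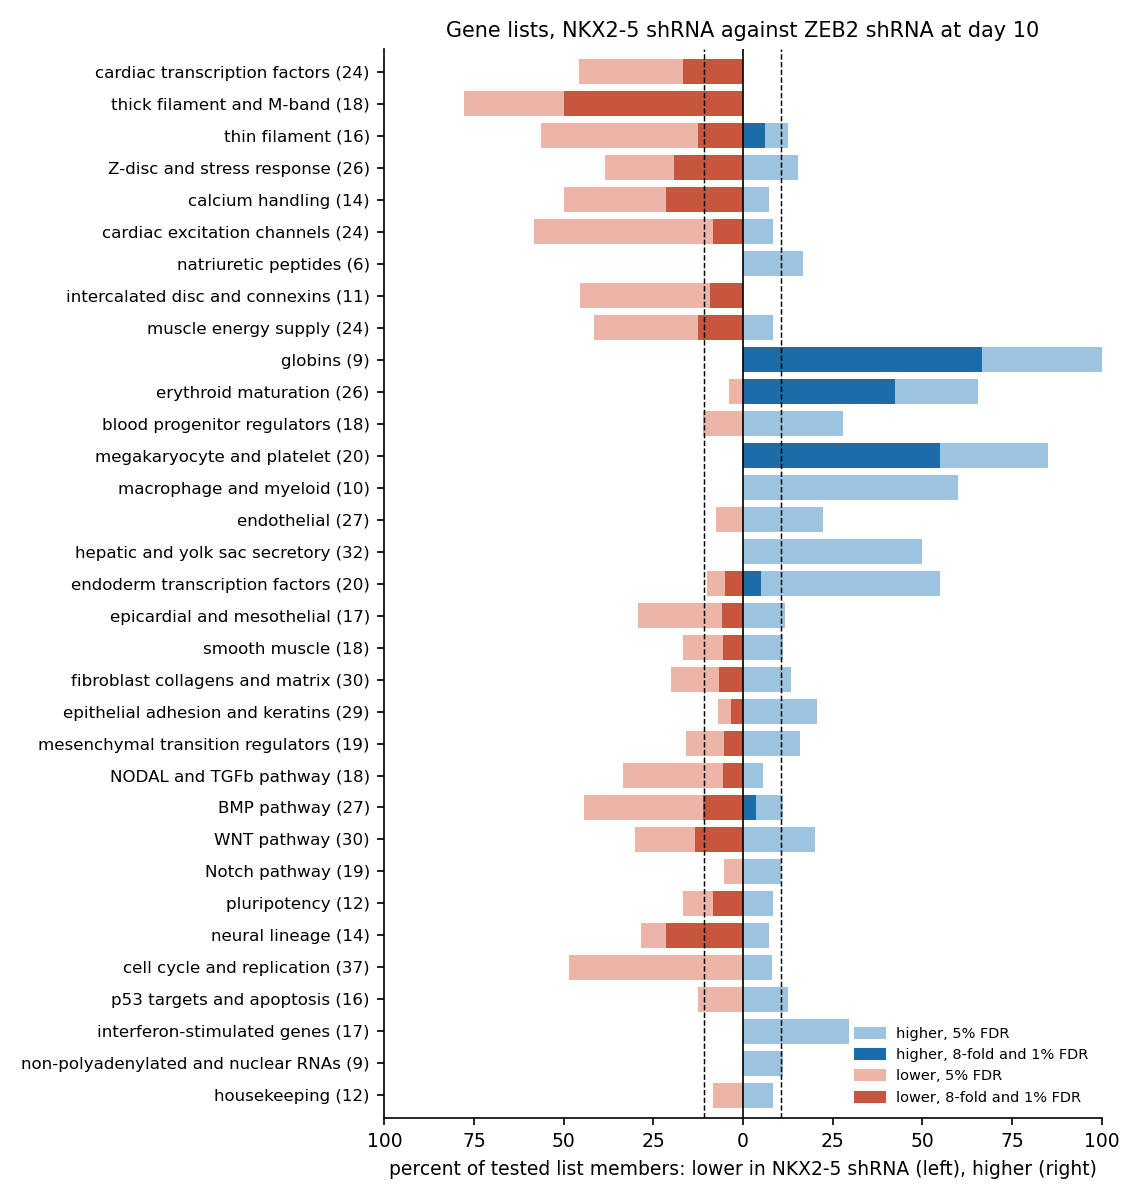
Percent of the tested members of each of 33 gene lists that were lower (left) or higher (right) in NKX2-5 shRNA than in ZEB2 shRNA cells at day 10, at 5% FDR (light bars) and called at 8-fold and 1% FDR (dark bars), with dashed lines at the shares over all genes, 10.8% and 10.5%. Globins, megakaryocyte and erythroid genes extend furthest to the right, with 9 of 9, 17 of 20 and 17 of 26 members, and thick filament genes furthest to the left, with 14 of 18.

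Genes of the contractile apparatus were lower in NKX2-5 shRNA cells than in ZEB2 shRNA cells, which themselves lay below WT. The thick filament and M-band list, which holds the myosins and the proteins that anchor them, had 14 of 18 tested members lower at 5% FDR, 9 of them called, and none higher, with a median log2 difference of -3.23. With ZEB2 shRNA replicate 3 or 4 left out, 9 and 11 members were lower, and 1 was higher without NKX2-5 shRNA replicate 2. TRIM55, a muscle ubiquitin ligase bound to the M-band, was at 0.638 and 1.05 CPM in NKX2-5 shRNA cells, 93.9 and 84.5 CPM in ZEB2 shRNA cells and 195 and 168 CPM in WT cells, a log2 difference of -6.71 ± 0.30. The 3 groups did not overlap in these libraries, and the compared replicates of each line lay close together. In the matched ZEB2 shRNA replicates 1 and 2, TRIM55 was at 150.6 and 182.9 CPM. Replicate 2 then lay above WT replicate 4, which was at 164.7 CPM in that fit, so ZEB2 shRNA and WT overlapped. In these bulk samples, fewer cells of a type and less RNA per cell cannot be told apart.

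MYH6, the alpha myosin heavy chain of atrial and early CMs, was at 3.98 and 82.8 CPM in NKX2-5 shRNA cells, 2621 and 1560 CPM in ZEB2 shRNA cells and 7620 and 6681 CPM in WT cells. The 3 groups did not overlap, but the NKX2-5 shRNA libraries differed widely from each other, and the gene passed 5% FDR without being called (-5.59 ± 1.22, adjusted p = 0.0209). MYH7 (chr14:23881949-23904869), the beta chain, was at 7.36 and 10.7 against 264 and 145 CPM, a log2 difference of -4.50 ± 0.40. MYL7 (chr7:44178463-44180931), the atrial light chain, was at 39.6 and 167 against 1751 and 1346 CPM (-3.91 ± 0.64), and MYBPC3, myosin binding protein C, at 28.1 and 25.3 against 553 and 313 CPM (-4.02 ± 0.33). All of these were called, although MYL7 missed 5% FDR without ZEB2 shRNA replicate 3. TTN, the giant spring of the sarcomere, differed less, at 4246 and 2827 against 12190 and 9113 CPM, with 60420 and 54590 CPM in WT cells (-1.59 ± 0.34, adjusted p = 0.0195). MYL9, a light chain of smooth muscle and non-muscle myosin, was the most abundant member that did not pass, with overlapping libraries and a log2 difference of 0.14 ± 0.26.

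The thin filament was split. Of 16 tested members 9 were lower at 5% FDR, 2 of them called, and 2 were higher, 1 called, and the median log2 difference was -1.52, or -1.46 with members at the floor set to their bound. Only 2 members were lower, and none higher, without ZEB2 shRNA replicate 3 or 4, and 3 were lower without WT replicate 3 or 4. TNNT2, cardiac troponin T, was at 1.37 and 40.5 CPM in NKX2-5 shRNA cells against 439 and 298 CPM in ZEB2 shRNA cells, with 2021 and 1383 CPM in WT cells (-4.14 ± 1.19, adjusted p = 0.0457). TMOD1, which caps the pointed end of actin, was at 1.28 and 2.83 against 55.5 and 57.5 CPM, and NEBL, a nebulin relative of the cardiac Z-disc, at 18.4 and 57.8 against 552 and 477 CPM, and both were called. On the other side, NEB (chr2:152341850-152591001), the nebulin of skeletal muscle, was called higher, at 78.7 and 26.9 against 5.32 and 7.26 CPM, but it missed 5% FDR with the matched ZEB2 shRNA replicates 1 and 2, where it stood at 30.8 and 20.4 CPM. ACTA1, skeletal actin, was higher at 116 and 170 against 50.4 and 37.1 CPM (1.71 ± 0.28, adjusted p = 0.00913). ACTC1, cardiac actin, did not pass, at 749 and 381 against 361 and 232 CPM (0.93 ± 0.36, adjusted p = 0.098), and its direction turned with the matched replicates.

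Among Z-disc and stress response genes, 10 of 26 tested members were lower, 5 of them called, and 4 were higher, with a median of -0.591. The counts without ZEB2 shRNA replicate 3 or 4 were 6 and 8 lower and none higher, and 2 were higher without WT replicate 3 or 4. The called members were XIRP1, LDB3, CSRP3, SYNPO2L and MYPN, all structural proteins of striated muscle. LDB3 was at 1.28 and 5.41 CPM in NKX2-5 shRNA cells, 123 and 76.6 CPM in ZEB2 shRNA cells and 495 and 672 CPM in WT cells (-4.89 ± 0.62). The 4 higher members were PDLIM3, FHL1, ANKRD1 and CRYAB. ANKRD1 was at 369 and 228 against 89.4 and 87.2 CPM (1.76 ± 0.31).

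Calcium handling and excitation followed the thick filament. Of 14 calcium handling genes tested, 7 were lower, 3 of them called, and 1 was higher. Of 24 excitation channel genes, 14 were lower, 2 called, and 2 were higher, and the medians were -1.59 and -1.46. Without ZEB2 shRNA replicate 3 or 4, 3 and 4 calcium genes and 4 and 6 channel genes were lower, and 0 and 1 channel genes were higher. Without NKX2-5 shRNA replicate 2, 4 of each list were higher. RYR2 (chr1:237205484-237997288), the calcium release channel of the sarcoplasmic reticulum, was at 6.67 and 25.5 CPM in NKX2-5 shRNA cells, 816 and 656 CPM in ZEB2 shRNA cells and 2427 and 2290 CPM in WT cells, a log2 difference of -5.51 ± 0.62. CACNA1C, the pore of the L-type calcium channel, was at 12.4 and 12.6 against 186 and 150 CPM (-3.75 ± 0.23), and the pacemaker channel HCN4 at 4.81 and 17.5 against 100 and 78.2 CPM (-3.00 ± 0.53). In each case the 2 lines did not overlap. Not every member was lowest in NKX2-5 shRNA cells. CACNA2D1, an auxiliary calcium channel subunit, was higher at 227 and 194 against 22.7 and 35.9 CPM, above WT at 54.3 and 25.5 CPM. ASPH, a calcium-binding and hydroxylating protein of many tissues, was higher too (1.71 ± 0.27). KCNJ2, an inward rectifier, and SLN, the inhibitor of the calcium pump, were high in ZEB2 shRNA cells against both other groups, KCNJ2 at 14.4 and 15.5 CPM with 1.41 and 0.22 CPM in WT cells, and SLN at 43.2 and 56.2 CPM with 3.92 and 1.1 CPM.

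Muscle energy genes had 10 of 24 members lower, 3 called, and 2 higher, with a median of -1.11, and without ZEB2 shRNA replicate 3 or 4 these were 4 and 5 lower and none higher. CKM, muscle creatine kinase, was at 0 and 1.29 CPM against 41.5 and 22.2 CPM, and PPARGC1A, a coactivator of mitochondrial biogenesis, at 11.1 and 6.56 against 113 and 94.5 CPM. The 2 higher members were CD36, a fatty acid transporter also found on platelets and endothelium, and COX7A1. Of 11 genes of the intercalated disc, which couples neighbouring CMs, 5 were lower and 1 of these was called, CTNNA3 at 3.53 and 7.33 against 70.3 and 61.8 CPM. In each fit without ZEB2 shRNA replicate 3 or 4, 1 gene passed 5% FDR, and 3 were lower without WT replicate 3 or 4. Of 6 natriuretic peptide genes, only NPPB passed, higher at 138 and 237 against 66 and 48.1 CPM, and it did not pass without either ZEB2 shRNA library. NPPA, a defining atrial marker, was low in every library, at 0.196 to 1.51 CPM in the compared libraries and 7.58 and 3.74 CPM in WT cells.

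**Figure D3:**
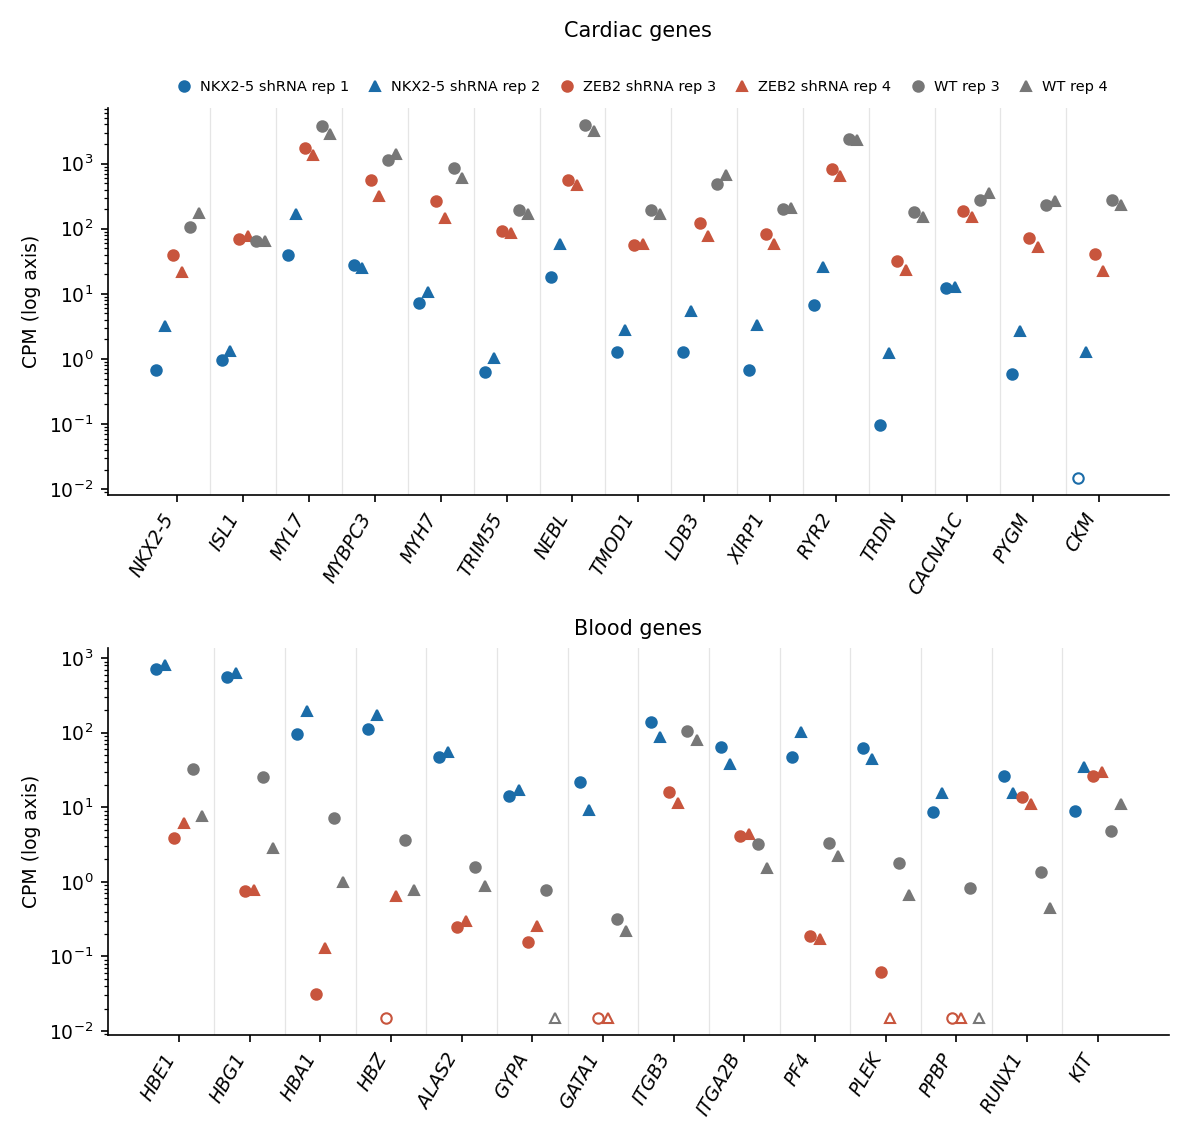
CPM of 15 cardiac genes and 14 blood genes in each NKX2-5 shRNA, ZEB2 shRNA and WT library at day 10, on a log axis, with 1 symbol per library and open symbols at the bottom of the axis for libraries with 0 counts. Most cardiac genes run from low in NKX2-5 shRNA through ZEB2 shRNA to WT, while the blood genes are highest in NKX2-5 shRNA, for example HBE1 at 714 and 800 CPM.

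The cardiac TFs divided into those that differed and those that did not. Of 24 tested, 11 were lower at 5% FDR, 4 of them called, and none was higher, with a median of -1.11. The number lower was 4 and 5 without ZEB2 shRNA replicate 3 or 4, and 2 were higher without NKX2-5 shRNA replicate 1. ISL1 (chr5:50679282-50690564), which marks second heart field progenitors, was at 0.981 and 1.34 CPM in NKX2-5 shRNA cells, 68.8 and 78.1 CPM in ZEB2 shRNA cells and 65.8 and 64.7 CPM in WT cells, a log2 difference of -5.97 ± 0.26. It was therefore near the WT level in ZEB2 shRNA cells. The called members were ISL1, NKX2-6, NKX2-5 itself and IRX4, a ventricular TF at 0.883 and 1.39 against 17.4 and 12.7 CPM. MYOCD, the coactivator of SRF, was at 14.6 and 13.8 against 113 and 85.7 CPM (-2.81 ± 0.22, adjusted p = 0.00109) and fell short of the 8-fold threshold. TBX5 was at 0.785 and 10.6 against 28.6 and 33.1 CPM and did not pass (adjusted p = 0.0777). The GATA factors of the heart did not pass either. GATA4 was at 208 and 126 against 152 and 142 CPM, with a log2 difference of 0.18 ± 0.30, and GATA6 at 117 and 124 against 108 and 119 CPM, with 0.09 ± 0.20. The direction of both turned under at least 1 alternative.

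Blood genes showed the opposite arrangement, with globins leading. All 9 globin genes tested were higher in NKX2-5 shRNA cells at 5% FDR, 6 of them called, and 6 passed without ZEB2 shRNA replicate 3 or 4. HBE1, the embryonic beta-like globin, was at 714 and 800 CPM in NKX2-5 shRNA cells, 3.82 and 6.09 CPM in ZEB2 shRNA cells and 32.9 and 7.69 CPM in WT cells, a log2 difference of 7.26 ± 0.72. HBZ, the embryonic alpha-like globin, was at 111 and 172 CPM against 0 and 0.648 CPM. The fetal globins HBG1 and HBG2 stood at 566 and 632 and at 530 and 648 CPM against less than 2 CPM in each ZEB2 shRNA library, and the alpha globins HBA1 and HBA2 at 96.4 and 196 and at 89.1 and 189 CPM. Both NKX2-5 shRNA libraries were far above all 4 others for each of these genes. HBG1 and HBG2, and HBA1 and HBA2, are near-identical copies, and with 1 best hit kept per read the split of reads within each pair is uncertain. The adult beta globin HBB was under the filter on low counts, with 5 and 272 counts in the NKX2-5 shRNA libraries, 0 and 2 in the ZEB2 shRNA libraries and 0 in both WT libraries, so it was seen mainly in NKX2-5 shRNA replicate 2.

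Red cell maturation genes rose with the globins. Of 26 tested, 17 were higher, 11 of them called, and 1 was lower, with a median of 3.08. With either ZEB2 shRNA library left out, replicate 3 or 4, 9 and 10 were higher and none was lower. ALAS2 (chrX:55035488-55057410, minus strand), the erythroid enzyme that starts haem synthesis, was at 47.2 and 55.6 CPM against 0.25 and 0.302 CPM, with 1.57 and 0.879 CPM in WT cells. Its log2 difference was 7.52 ± 0.39, with an adjusted p of 0.000478. GATA1, the master TF of red cells and megakaryocytes, was at 21.6 and 9.24 CPM and had 0 counts in both ZEB2 shRNA libraries, which makes it at least 138-fold higher, against a floor of 3 counts per library. KLF1, which activates adult globin genes, was at 9.13 and 8 against 0.813 and 0.345 CPM. SLC4A1, the anion exchanger of the red cell membrane, had 4 counts in all in ZEB2 shRNA cells. Its ratio of CPM was 147 (57.1 to 543), with an exact binomial 95% interval. Not all members behaved in this way. The haem enzymes CPOX, FECH and UROD did not pass 5% FDR, with log2 differences from 0.26 to 0.67, and EPOR, the erythropoietin receptor, was lower at 21.2 and 26.2 against 46.2 and 40.4 CPM, although it passed neither without NKX2-5 shRNA replicate 1 nor without either WT library.

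Megakaryocyte and platelet genes gave 17 of 20 members higher, 11 called and none lower, with a median of 4.0, and 7 and 9 were higher without ZEB2 shRNA replicate 3 or 4. PF4 (chr4:74846528-74847744, minus strand), a chemokine of platelet granules, was at 47.6 and 104 CPM against 0.188 and 0.173 CPM, with 3.29 and 2.2 CPM in WT cells (8.66 ± 0.57). ITGA2B and ITGB3, the subunits of the platelet fibrinogen receptor, were both called, ITGA2B at 64.9 and 38.5 against 4.13 and 4.32 CPM. ITGB3 differed from the others in its control level: it was at 140 and 87.2 against 15.9 and 11.6 CPM, but WT cells had 106 and 80.3 CPM, so the ZEB2 shRNA libraries were the ones that stood apart. PLEK, a platelet protein kinase C substrate, had 2 counts in all in ZEB2 shRNA cells and a ratio of CPM of 1470 (406 to 12100). PPBP, a platelet chemokine, had no count in ZEB2 shRNA cells and was at least 108-fold higher, but missed 5% FDR without ZEB2 shRNA replicate 3. GP1BB, a subunit of the receptor for von Willebrand factor, did not pass, at 8.05 and 10.8 against 5.29 and 5.74 CPM.

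Regulators shared by blood progenitors differed less. Of 18 tested, 5 were higher, 2 lower and none called, and without either ZEB2 shRNA library none passed in either direction, while 10 were higher without NKX2-5 shRNA replicate 2 and none was lower without WT replicate 3 or 4. FLI1, an ETS factor of megakaryocytes and endothelium, was at 50.2 and 38.3 against 10.3 and 13.3 CPM, and LYL1, a relative of the blood TF TAL1, at 12.7 and 9.62 against 1.72 and 1.94 CPM. RUNX1 and GATA2 did not pass. RUNX1 stood at 26.4 and 15.5 against 13.9 and 11.1 CPM, with 1.36 and 0.44 CPM in WT cells, and GATA2 overlapped between the lines. CD34 was at 22.6 and 24 against 7.41 and 9.85 CPM, with 0.47 and 0.659 CPM in WT cells. ZEB2 shRNA cells thus held some progenitor transcripts with next to no globin.

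For macrophages, 6 of 10 tested members were higher and none was called, and none passed without either ZEB2 shRNA library. The summed level of these 10 was 83.9 and 51.7 CPM in NKX2-5 shRNA cells, 17.3 and 16.7 CPM in ZEB2 shRNA cells and 8 and 8.24 CPM in WT cells. CD163, a haemoglobin scavenger receptor, was at 29.4 and 11.6 against 7.13 and 6.82 CPM, and CSF1R at 11.7 and 5.46 against 2.35 and 1.6 CPM. Of the defining markers, C1QA had 0 counts in all 6 libraries, CD14 did not exceed 0.589 CPM, and TYROBP had counts in NKX2-5 shRNA replicate 2 (1.34 CPM) and WT replicate 3 but in no other.

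Promoter sequence was examined for the blood genes that were called, because GATA1 was among them and binds GATA motifs. The letters searched were GATAA and the reverse complement TTATC, on both strands, from 250 bases before to 50 bases after each gene's start in RefSeq (GRCh38.p14). Of 30 genes, the called members of the globin, erythroid and megakaryocyte lists with PF4V1 and LY6G6F, which were among the largest rises, 16 matched a promoter in the table, and 12 of these held the motif. Of all 35116 promoters of that length, 22.7% held it. That is a share of single promoters, whereas the 12 of 16 are genes, counted if any of their promoters held it. It was found in ALAS2, GFI1B, GP9, GYPB, HEMGN, KLF1, LY6G6F, MPIG6B, PF4V1, PPBP, RHAG and SELP, and not in GATA1, ITGA2B, PLEK or TUBB1. A match is a string of letters, not a bound site. Promoters of an erythroid enzyme and 3 platelet genes are shown with matches in capitals, 5′ to 3′ on the gene's strand, at chrX:55030928-55031227 (minus strand) for ALAS2, chr4:73988141-73988440 (minus strand) for PPBP, chr4:73853046-73853345 (plus strand) for PF4V1 and chr6:31706616-31706915 (plus strand) for LY6G6F.
ALAS2: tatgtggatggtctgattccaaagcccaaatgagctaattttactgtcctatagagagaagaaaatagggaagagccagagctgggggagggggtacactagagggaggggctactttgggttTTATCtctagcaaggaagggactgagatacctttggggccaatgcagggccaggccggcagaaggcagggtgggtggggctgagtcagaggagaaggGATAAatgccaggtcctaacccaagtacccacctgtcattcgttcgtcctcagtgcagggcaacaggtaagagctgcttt
PPBP: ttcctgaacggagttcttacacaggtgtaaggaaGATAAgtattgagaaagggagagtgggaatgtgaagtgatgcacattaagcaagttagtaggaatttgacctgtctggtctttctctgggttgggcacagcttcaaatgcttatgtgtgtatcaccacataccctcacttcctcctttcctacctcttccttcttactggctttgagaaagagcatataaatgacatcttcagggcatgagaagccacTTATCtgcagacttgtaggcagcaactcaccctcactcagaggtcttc
PF4V1: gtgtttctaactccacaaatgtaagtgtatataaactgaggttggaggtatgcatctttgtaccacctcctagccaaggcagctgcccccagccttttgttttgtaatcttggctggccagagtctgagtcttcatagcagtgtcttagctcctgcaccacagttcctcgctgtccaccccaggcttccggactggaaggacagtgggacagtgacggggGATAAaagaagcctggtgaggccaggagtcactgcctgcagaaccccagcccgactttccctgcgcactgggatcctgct
LY6G6F: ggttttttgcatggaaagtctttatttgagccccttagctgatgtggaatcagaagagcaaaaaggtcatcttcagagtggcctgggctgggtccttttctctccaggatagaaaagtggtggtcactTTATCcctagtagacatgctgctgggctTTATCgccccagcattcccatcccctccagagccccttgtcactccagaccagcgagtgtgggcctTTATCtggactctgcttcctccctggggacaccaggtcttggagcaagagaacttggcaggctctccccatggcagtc
ALAS2 and PPBP held 2 matches each, PF4V1 held 1 and LY6G6F held 3. The match nearest before the start lay 30 bases upstream in ALAS2 and in PF4V1 and 28 bases upstream in LY6G6F, the distance at which TATA boxes lie. In PPBP no match lay at that distance, as the matches began 216 bases upstream and at base 3 after the start.

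Endothelial genes did not move as a block. Of 27 tested, 6 were higher, 2 lower and none called, with a median of 1.10, and without ZEB2 shRNA replicate 3 or 4 none was higher and 1 lower, while 15 were higher without NKX2-5 shRNA replicate 1 and 5 were lower without replicate 2. KDR, the receptor for VEGF that also marks early mesoderm, was lower at 47.4 and 96.6 against 331 and 394 CPM, with 417 and 343 CPM in WT cells (-2.33 ± 0.35, adjusted p = 0.00649). PECAM1, an adhesion protein of endothelium and platelets, was higher at 22.9 and 13.6 against 2.78 and 3.33 CPM, and TIE1 at 15.8 and 14.7 against 3.22 and 2.29 CPM. CDH5, the cadherin that defines endothelium, did not pass, at 13.6 and 22.6 against 8.85 and 6.74 CPM (1.21 ± 0.46, adjusted p = 0.0967), with 1.99 and 0.659 CPM in WT cells.

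Genes of the liver and yolk sac endoderm were high in both lines and higher in NKX2-5 shRNA cells. All 32 listed genes were tested and 16 were higher at 5% FDR, with none lower and none called, and a median log2 difference of 1.68. Their summed level was 68100 and 56300 CPM in NKX2-5 shRNA cells, 15100 and 17500 CPM in ZEB2 shRNA cells and 7380 and 2880 CPM in WT cells. The 3 groups did not overlap, so ZEB2 shRNA cells also lay above WT. AFP, the main serum protein of the fetal liver and yolk sac, was at 31320 and 20030 against 4900 and 6009 CPM (2.23 ± 0.47, adjusted p = 0.0186), and TTR, a thyroid hormone carrier, at 5629 and 5346 against 970 and 1223 CPM (2.32 ± 0.47). ALB, the adult serum protein, came mainly from NKX2-5 shRNA replicate 1, at 319 and 24 against 12.1 and 11 CPM. APOA1, the main protein of high-density lipoprotein, was at 3030 and 2427 against 944 and 959 CPM and did not pass (adjusted p = 0.0532). In each fit without ZEB2 shRNA replicate 3 or 4, 2 of these genes passed, and 23 passed without WT replicate 3 or 4.

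The TFs of that lineage were higher with them. Of 20 endoderm TFs tested, 11 were higher and 2 lower, with 1 called in each direction. Just 1 was higher without ZEB2 shRNA replicate 3 or 4, and none was lower without replicate 3. HNF4A, a central regulator of liver genes, was at 177 and 219 against 76.2 and 80.5 CPM (1.34 ± 0.33), with 18.8 and 8.57 CPM in WT cells, and FOXA1 at 87.5 and 68 against 12.9 and 14.6 CPM (2.50 ± 0.39). CDX2, a TF of hindgut, trophoblast and early blood, was at 57.3 and 65.9 against 15.9 and 14.7 CPM. NR1H4, the bile acid receptor, had 0 counts in both ZEB2 shRNA libraries and was at 12.4 and 5.65 CPM, at least 80.6-fold higher. Among those lower, EOMES (chr3:27757440-27764202), a TF of the primitive streak, was called: it was at 0.393 and 0 CPM in NKX2-5 shRNA cells, 14.4 and 12.9 CPM in ZEB2 shRNA cells and 0.261 and 0.659 CPM in WT cells. EOMES was thus high in ZEB2 shRNA cells alone of the 3 groups, although it missed 5% FDR without replicate 3, and it was at 14.7 and 21.9 CPM in the matched ZEB2 shRNA replicates 1 and 2.

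Over all genes, the largest rises whose mean reached at least 5 CPM in the higher group included 6 members of the blood lists. The 10 genes were CTSF, GATA1, PPBP, HBA1, PF4V1, NR1H4, LY6G6F, PLEK, HBG1 and HBA2. CTSF, a lysosomal cysteine protease, stood at 17.8 and 18 CPM against 0 counts in both ZEB2 shRNA libraries, at least 160-fold higher, with 1.67 and 1.98 CPM in WT cells. In the matched ZEB2 shRNA replicates 1 and 2 CTSF was at 0.888 and 1.15 CPM, and against these the log2 difference was 4.13. PF4V1 and LY6G6F, both platelet genes, had 0 counts in ZEB2 shRNA replicates 3 and 4 and were at least 84.4-fold and 79.6-fold higher. In the matched replicates LY6G6F had 0.309 and 0.246 CPM.

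The largest falls were genes that ZEB2 shRNA cells expressed above both other groups or above NKX2-5 shRNA cells. They were TFAP2A, ALX4, GABRP, TFAP2B, WNT6, VTCN1, NECTIN4, PTGFR, PI15 and RUBCNL. TFAP2A, an AP-2 TF of surface ectoderm, neural crest and trophoblast, had 0 counts in both NKX2-5 shRNA libraries and 29.8 and 20 CPM in ZEB2 shRNA cells, with 0.105 and 0 CPM in WT cells, and was at least 171-fold lower in the former. Its paralogue TFAP2B was at 8.63 and 5.61 CPM in ZEB2 shRNA cells and had 0 counts in all 4 other libraries, at least 49.0-fold lower. GABRP, a GABA receptor subunit of epithelia, reached 743 and 663 CPM in ZEB2 shRNA cells, with 1.18 and 0 CPM in NKX2-5 shRNA cells and 1.73 and 2.64 CPM in WT cells (-10.22 ± 0.93). VTCN1, an immune checkpoint protein of amnion, trophoblast and other epithelia, was at 90.5 and 87.4 CPM against 0.393 and 0.287 CPM (-8.01 ± 0.42), and ALX4, a homeobox TF of craniofacial mesenchyme, at 5.91 and 10.6 CPM against 0 counts. For these genes the ZEB2 shRNA libraries were the only high ones of the 6. Of the trophoblast markers looked at, CGA, a hormone subunit, was at 1.0 and 8.21 CPM in ZEB2 shRNA cells and had 0 counts in NKX2-5 shRNA cells. KRT7 was at 30.2 and 22.8 CPM in ZEB2 shRNA cells against 14.3 and 14.7 CPM in NKX2-5 shRNA cells. GCM1 did not exceed 0.192 CPM in either line. Whether trophoblast cells had a part in these differences was not tested. PTGFR, a prostaglandin receptor, and RUBCNL, an autophagy regulator, were also present in WT cells, PTGFR at 13.6 and 11 CPM and RUBCNL at 12.3 and 11.5 CPM, and were nearly absent from NKX2-5 shRNA cells.

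How high these genes stood in ZEB2 shRNA cells differed between the replicate pairs. After row matching and a fit of all 10 day 10 libraries, GABRP was at 75.7 and 54.1 CPM in ZEB2 shRNA replicates 1 and 2 and at 711 and 636 CPM in replicates 3 and 4, while WT replicates 1 and 2 had 19.9 and 17.2 CPM. VTCN1 was at 6.45 and 4.09 against 86.6 and 83.7 CPM, NECTIN4 at 1.74 and 1.47 against 9.03 and 10.1 CPM, and ALX4 at 0.0772 and 0.164 against 5.65 and 10.2 CPM. These genes were therefore mainly a feature of replicates 3 and 4. TFAP2B was at 0.386 and 0 CPM in replicates 1 and 2 against 8.26 and 5.38 CPM in replicates 3 and 4. TFAP2A was at 17.8 and 6.55 CPM in replicates 1 and 2, PTGFR at 16 and 18.8 CPM, PI15 at 23.8 and 49.6 CPM and RUBCNL at 37 and 44.6 CPM, all far above NKX2-5 shRNA cells. For TFAP2A, however, WT replicates 1 and 2 had 5.5 and 1.91 CPM, so ZEB2 shRNA replicate 2 lay near WT replicate 1. With all 4 replicates the adjusted p of ALX4 was 0.0588 and that of TFAP2B 0.0554. Of the 315 called genes with a matched row in replicates 1 and 2, 313 had the same sign against those replicates and 297 also passed 5% FDR. Rows had been matched by the likeness of their counts to replicate 3 of ZEB2 shRNA and WT, and the NKX2-5 shRNA libraries were the same. Agreement is thus partly built in, and these counts are no separate check.

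**Figure D4:**
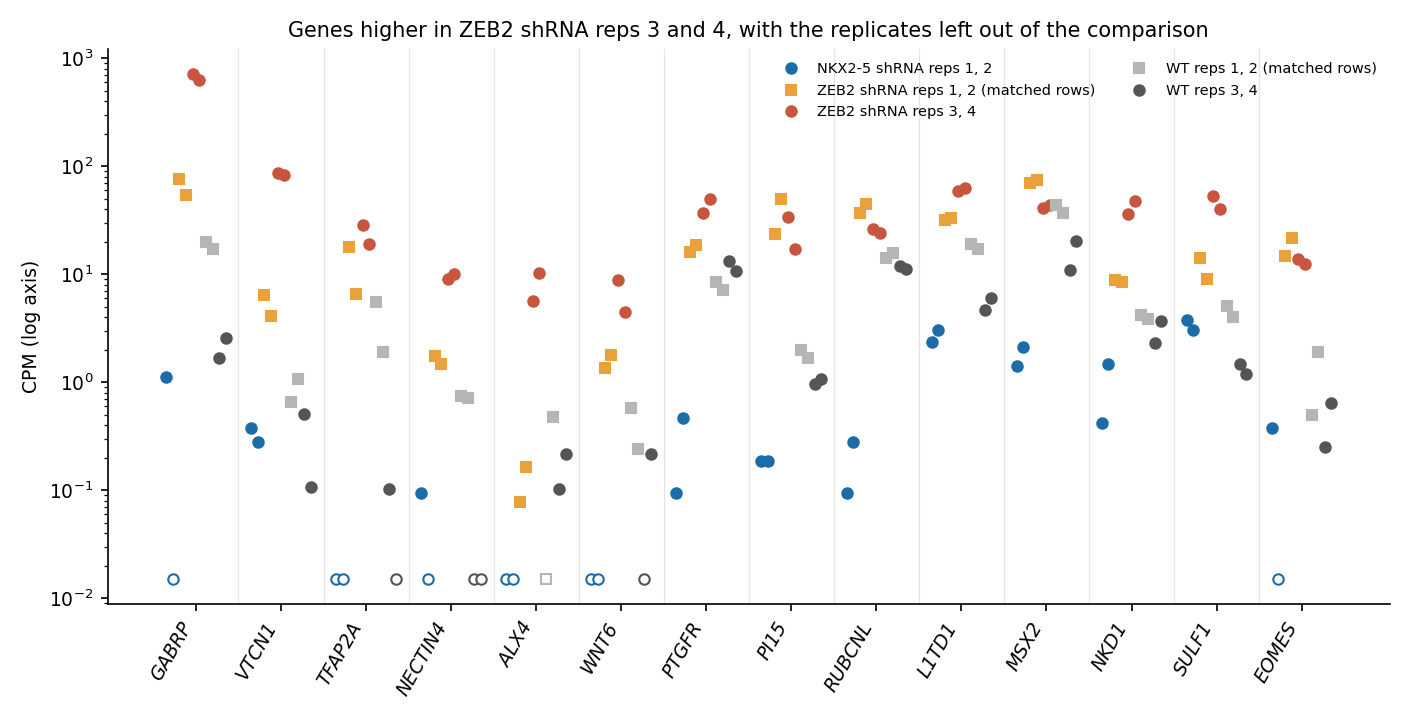
CPM of 14 genes that were high in ZEB2 shRNA cells, in all day 10 libraries of a fit of 10 libraries, on a log axis, with squares for ZEB2 shRNA and WT replicates 1 and 2, whose rows were matched to accessions by their counts. GABRP, VTCN1, NECTIN4 and ALX4 are lower in ZEB2 shRNA replicates 1 and 2 than in 3 and 4, while PI15 overlaps between the pairs and RUBCNL is a little higher in 1 and 2.

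NECTIN4, an adhesion protein of epithelia and placenta, had 2 counts in all in NKX2-5 shRNA cells and 9.45 and 10.5 CPM in ZEB2 shRNA cells, with 0 counts in both WT libraries. The ratio of CPM, ZEB2 shRNA over NKX2-5 shRNA, was 204 (56.2 to 1690). The E-box letters CAGGTG, which ZEB2 is known to bind, and the reverse complement CACCTG were searched in the promoters of the 10 largest falls. Of these, 8 genes matched a promoter and only NECTIN4 held the motif, while 20.6% of all single promoters of that length held it. It is shown with the match in capitals, from chr1:161089509-161089808 (minus strand, GRCh38.p14, RefSeq).
NECTIN4: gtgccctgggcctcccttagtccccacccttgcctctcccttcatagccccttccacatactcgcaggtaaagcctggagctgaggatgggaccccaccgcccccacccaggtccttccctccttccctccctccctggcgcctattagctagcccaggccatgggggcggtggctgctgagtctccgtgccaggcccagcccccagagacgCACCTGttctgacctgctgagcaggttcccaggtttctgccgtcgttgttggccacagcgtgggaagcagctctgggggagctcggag
The match lay 38 bases before the start.

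Epithelial genes as a list were spread over both directions. Of 29 tested, 6 were higher in NKX2-5 shRNA cells and 2 lower, with NECTIN4 the only one called and a median of 0.677. Without ZEB2 shRNA replicate 3 or 4 none was higher, and 17 were higher without NKX2-5 shRNA replicate 2. CDH1, the epithelial cadherin that ZEB2 is known to repress, was at 247 and 210 CPM in NKX2-5 shRNA cells, 191 and 162 CPM in ZEB2 shRNA cells and 28.2 and 11.2 CPM in WT cells, and its log2 difference of 0.37 ± 0.37 did not pass. OCLN, a tight junction protein, was higher at 256 and 198 against 72.6 and 77.6 CPM, and GRHL2, an epithelial TF, was lower at 6.87 and 12.3 against 87.9 and 65.5 CPM. Of 19 regulators of the mesenchymal transition, 3 were higher and 3 lower, and 1 was called. The called member was PRRX1, a TF of limb and craniofacial mesenchyme, at 0.442 and 0.479 against 4.85 and 8.38 CPM, which missed 5% FDR over all 4 ZEB2 shRNA replicates. The list had 1 and 2 lower and none higher without ZEB2 shRNA replicate 3 or 4, and 5 and 8 lower without NKX2-5 shRNA replicate 1 or 2. VIM was at 1925 and 2762 against 1029 and 1164 CPM (1.10 ± 0.25), and SNAI1, SNAI2 and TWIST1 did not pass.

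In the BMP, WNT and NODAL lists more members were lower in NKX2-5 shRNA cells than higher. Of 27 BMP pathway genes 12 were lower, 3 of them called, and 3 were higher, 1 called, with a median of -0.846, and 6 and 7 were lower and none higher without ZEB2 shRNA replicate 3 or 4, and 6 were higher without NKX2-5 shRNA replicate 2. BMP4, a ligand that patterns mesoderm, was at 13.3 and 27.9 CPM in NKX2-5 shRNA cells, 91.6 and 99 CPM in ZEB2 shRNA cells and 36.3 and 38.5 CPM in WT cells (-2.21 ± 0.34). Of the pathway's targets, MSX1, MSX2, ID1 and ID3 were also lower, and ID2 did not pass. MSX1 was at 2.55 and 3.93 against 32.9 and 36.4 CPM, MSX2 at 1.47 and 2.2 against 43.1 and 46.1 CPM, and the log2 differences of ID1 and ID3 were -1.79 ± 0.39 and -1.46 ± 0.22. ID2 was at 414 and 223 against 206 and 234 CPM, with overlapping libraries (0.53 ± 0.29, adjusted p = 0.226). MSX1 and MSX2 stood in NKX2-5 shRNA cells near or below WT replicates 3 and 4, and in ZEB2 shRNA replicates 3 and 4 above them. The matched WT replicates 1 and 2 had 12.4 and 14.1 CPM of MSX1 and 44.07 and 36.85 CPM of MSX2. For MSX2, ZEB2 shRNA replicate 3 at 41.2 CPM in that fit lay below WT replicate 1. BMP10, a ligand of the trabecular heart wall, was called higher at 4.61 and 4.12 against 0.438 and 0.259 CPM, with 3.03 and 1.87 CPM in WT cells, and it missed 5% FDR without either ZEB2 shRNA library. The receptors BMPR1B and BMPR2 and the mediators SMAD1 and SMAD5 did not pass.

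In the WNT pathway 9 of 30 members were lower, 4 called, and 6 were higher, none called, with a median of -0.596. Without ZEB2 shRNA replicate 3 or 4, 3 and 8 were lower and none higher, and without NKX2-5 shRNA replicate 1 or 2, 15 and 14 were lower. AXIN2, NKD1 and LGR5, all targets of canonical signalling, were lower together. NKD1 was at 0.442 and 1.53 CPM in NKX2-5 shRNA cells, 37.9 and 50.3 CPM in ZEB2 shRNA cells and 2.4 and 3.74 CPM in WT cells (-5.47 ± 0.56), and AXIN2 at 6.87 and 9.82 against 35.5 and 34.8 CPM, with 25.2 and 36 CPM in WT cells. In the matched ZEB2 shRNA replicates 1 and 2, NKD1 was only at 8.84 and 8.43 CPM, with 4.19 and 3.82 CPM in WT replicates 1 and 2. The ligand WNT6 had 0 counts in NKX2-5 shRNA cells against 9.23 and 4.71 CPM in ZEB2 shRNA replicates 3 and 4, at least 47.9-fold lower. It was at 1.35 and 1.8 CPM in the matched ZEB2 shRNA replicates 1 and 2. WNT2 was at 0 and 0.0958 CPM against 1.97 and 1.38 CPM in ZEB2 shRNA replicates 3 and 4, with 14.9 and 24.1 CPM in WT cells. LGR5, WNT6 and WNT2 missed 5% FDR without ZEB2 shRNA replicate 3. The members higher in NKX2-5 shRNA cells included the secreted antagonists DKK3, DKK4, SFRP5 and FRZB. FRZB was at 461 and 463 against 75.9 and 99.2 CPM, with 36 and 8.24 CPM in WT cells (2.40 ± 0.56, adjusted p = 0.0255).

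Of 18 NODAL and TGFβ pathway genes 6 were lower, 1 called, and 1 was higher, and 4 were lower without either ZEB2 shRNA library. CFC1, a co-receptor for NODAL, was at 0.0491 and 0.383 against 9.85 and 11 CPM (-5.54 ± 0.68), and its paralogue CRIPTO at 4.07 and 5.03 against 26.1 and 26 CPM, while the ligand NODAL itself overlapped between the lines. Of 19 Notch pathway genes 2 were higher, 1 was lower and none was called. JAG1, a ligand, was lower at 33.1 and 44.8 against 141 and 135 CPM, and NOTCH4, the receptor of endothelium, was higher at 6.97 and 6.89 against 1.81 and 1.47 CPM. The count was 1 lower and none higher without ZEB2 shRNA replicate 3 or 4, and 3 and 5 lower without NKX2-5 shRNA replicate 1 or 2, and 1 was higher without WT replicate 3 or 4.

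Genes of the starting stem cells and of the neural lineage held a few called members. Of 12 pluripotency genes tested, 1 was higher, 2 were lower and 1 of these was called, L1TD1, an RNA-binding protein of ESCs, at 2.45 and 3.16 against 62.4 and 65.2 CPM, with 4.81 and 6.15 CPM in WT cells. POU5F1 and SOX2, which define ESCs, were near 0 in all libraries. Of 14 neural genes tested, 4 were lower, 3 called, and 1 was higher, and the median was -0.447, or -0.577 with members at the floor set to their bound. The called members ZIC1, ZIC2 and PAX7 are TFs of the dorsal neural tube and neural crest. ZIC2 was at 0.834 and 0.814 against 8.57 and 13.3 CPM, with 2.4 and 2.97 CPM in WT cells. PAX7 missed 5% FDR without ZEB2 shRNA replicate 3. The neural list had 2 and 3 lower without ZEB2 shRNA replicate 3 or 4, 8 lower without NKX2-5 shRNA replicate 2 and 5 higher without replicate 1.

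The other mesodermal lists showed single genes rather than shifts of the whole list. Of 17 epicardial genes 5 were lower, 1 called, and 2 were higher, with a median of -1.01, and 3 and 2 were lower and none higher without ZEB2 shRNA replicate 3 or 4, while 4 were higher without NKX2-5 shRNA replicate 1. SULF1, a heparan sulfate sulfatase, was called at 3.98 and 3.16 against 55.4 and 42.2 CPM, with 1.52 and 1.21 CPM in WT cells. In the matched ZEB2 shRNA replicates 1 and 2 it was at 14.2 and 9.09 CPM. ALDH1A2, which makes retinoic acid, was higher by 3.87 ± 0.77 on the log2 scale, at 2.01 and 1.29 CPM in NKX2-5 shRNA cells. Of 18 smooth muscle genes 3 were lower, 1 called, and 2 were higher. SYNPO2 was called at 4.07 and 4.36 against 40.3 and 44.7 CPM, but the matched ZEB2 shRNA replicates 1 and 2 had 5.44 and 3.19 CPM and the call was lost. RGS5, a pericyte gene, was lower at 29.1 and 27.6 against 160 and 182 CPM (-2.59 ± 0.19), and ACTG2 was higher at 16.7 and 43.4 against 4.19 and 2.63 CPM. The smooth muscle list had 2 lower and none higher without ZEB2 shRNA replicate 3 or 4. Without NKX2-5 shRNA replicate 1 or 2, 6 and 5 were higher, and 7 were lower without replicate 2.

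Among 30 collagen and matrix genes, 6 were lower, 2 called, and 4 were higher, with a median of -0.169, and without ZEB2 shRNA replicate 3 or 4, 3 were lower and none higher. The called members were the cartilage collagens COL2A1, at 74.6 and 78.2 CPM against 885 and 505 CPM with 1260 and 1675 CPM in WT cells, and COL9A1. The basement membrane collagens went the other way: COL4A1 was at 2042 and 1540 against 570 and 500 CPM (1.74 ± 0.27) and COL4A2 at 1621 and 1069 against 614 and 519 CPM (1.25 ± 0.26). The fibroblast collagens COL1A1, COL1A2 and COL3A1 did not pass 5% FDR, and in both lines they lay above WT, COL1A1 at 952 and 1871 CPM and 1253 and 1242 CPM with 280 and 359 CPM in WT cells.

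Cell cycle genes were lower in NKX2-5 shRNA cells by a small factor. Of 37 tested, 18 were lower and 3 higher, with none called and a median of -0.736. TOP2A, which untangles DNA at mitosis, was at 93.3 and 152 CPM in NKX2-5 shRNA cells, 440 and 514 CPM in ZEB2 shRNA cells and 231 and 172 CPM in WT cells (-1.96 ± 0.29, adjusted p = 0.00641), and MKI67 at 84.8 and 121 against 267 and 291 CPM. The ZEB2 shRNA libraries were the highest of the 3 groups for both. The higher members were CCND3, CDKN1C and CDKN2B, a cyclin and 2 inhibitors of cyclin-dependent kinases, CDKN1C at 867 and 549 against 182 and 176 CPM (1.98 ± 0.25). The list rested on both ZEB2 shRNA libraries, since without replicate 3 or 4 the number lower was 3 and 0 and that higher was 1. Without NKX2-5 shRNA replicate 2, 5 were higher. Of 16 p53 targets 2 were higher and 2 lower, and none passed without either ZEB2 shRNA library or either WT library, while 4 passed each way without NKX2-5 shRNA replicate 2.

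Of 17 interferon-stimulated genes 5 were higher, none called, and none passed without either ZEB2 shRNA library, while 8 were higher without NKX2-5 shRNA replicate 2 and 3 without WT replicate 3 or 4. MX1, an antiviral GTPase, was at 84.6 and 2.39 CPM in NKX2-5 shRNA cells, 0.751 and 0.345 CPM in ZEB2 shRNA cells and 0.157 and 0.22 CPM in WT cells. Its difference came largely from NKX2-5 shRNA replicate 1, and RIGI and IFIT3 were highest in that library too. Among 9 nuclear or non-polyadenylated RNAs only NEAT1 passed, higher at 1301 and 606 against 376 and 396 CPM, and it did not pass without NKX2-5 shRNA replicate 1, either ZEB2 shRNA library or either WT library. Of 12 housekeeping genes ACTB was higher (0.91 ± 0.23) and PGK1 lower (-0.97 ± 0.28), and the median of the list was 0.048.

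Whether the lines had already differed in this way at day 6 was tested as an interaction, the log2 difference at day 10 minus that at day 6, over 17233 genes. It was called, at 8-fold and 1% FDR, for 132 genes, 88 more positive at day 10 (0.511% of genes tested) and 44 more negative (0.255%). At 5% FDR 986 were more positive and 873 more negative, and without TMM factors these were 791 and 1091. The number called rested on single libraries: it lay between 1 and 24 when a day 6 library was left out, 9 and 5 without ZEB2 shRNA day 10 replicate 3 or 4, and 367 and 597 without NKX2-5 shRNA day 10 replicate 1 or 2. All 132 kept their direction in each case, but they were chosen for a large interaction in these same libraries, so this is no separate check.

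Blood genes were among those whose difference grew. ALAS2 was at 0.151 and 0.287 CPM in NKX2-5 shRNA and 2.38 and 3 CPM in ZEB2 shRNA cells at day 6, and at 47.1 and 55.5 CPM and 0.249 and 0.301 CPM at day 10, so that the order of the lines was reversed. The interaction was 11.02 ± 0.46 on the log2 scale, with an adjusted p of 0.000303. The median log2 difference of the globin list was 1.12 at day 6 and 8.95 at day 10, with 3 of 9 members called more positive and no other past 5% FDR. For red cell maturation the medians were -0.16 and 3.09, with 11 of 26 members past 5% FDR, and for megakaryocyte genes 0.253 and 4.01, with 8 of 20. ATP12A, a proton pump of epithelia, and INSYN2A, of inhibitory synapses, were ordered the other way at day 6 as well, ATP12A with 0.151 and 0.0411 against 1.05 and 0.439 CPM at day 6 and 31.6 and 15.4 against 0.466 and 0.0861 CPM at day 10.

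Some genes high in ZEB2 shRNA cells, such as TFAP2A and RUBCNL, were called more negative at day 10. Others, such as EOMES, L1TD1 and PTGFR, did not pass 5% FDR in the interaction. These were already higher in ZEB2 shRNA cells at day 6, EOMES at 183 and 164 CPM against 3.93 and 6.1 CPM. TFAP2A was at 0.605 and 0.944 against 7.4 and 6.14 CPM at day 6 and at 0 against 29.6 and 20 CPM at day 10, so ZEB2 shRNA cells were the higher line at both times. With ZEB2 shRNA replicates 3 and 4, ELMOD1, which regulates small GTPases, and RASGRF2, an exchange factor for RAS, were also reversed in order. RASGRF2 was at 44.3 and 56.7 against 12.3 and 11.5 CPM at day 6 and 5.34 and 2.3 against 45.7 and 35.7 CPM at day 10 (-5.50 ± 0.50, adjusted p = 0.00183). In the matched ZEB2 shRNA replicates 1 and 2 at day 10, ELMOD1 was at 0.695 and 0.737 CPM, with 0.611 and 0.839 CPM in NKX2-5 shRNA cells. RASGRF2 was at 12.9 and 7.7 CPM in those replicates, with 5.12 and 2.24 CPM in NKX2-5 shRNA cells.

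Cardiac lists other than that of the intercalated disc, whose median was 0.249 at day 6 and -0.195 at day 10, had negative medians already at day 6. The median log2 difference of the thick filament list was -4.44 at day 6 and -3.42 at day 10, with 6 of 17 members more positive at 5% FDR and none more negative, and that of the cardiac TFs was -2.44 and -1.11. Cell cycle genes went from a median of -1.92 to -0.731, with 13 of 37 members more positive, and smooth muscle genes from -1.32 to 0.261, with 8 of 18. The liver and yolk sac list had positive medians at both times, 2.49 and 1.69, and 11 of 32 members were more negative at day 10 and 4 more positive.

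**Figure D5:**
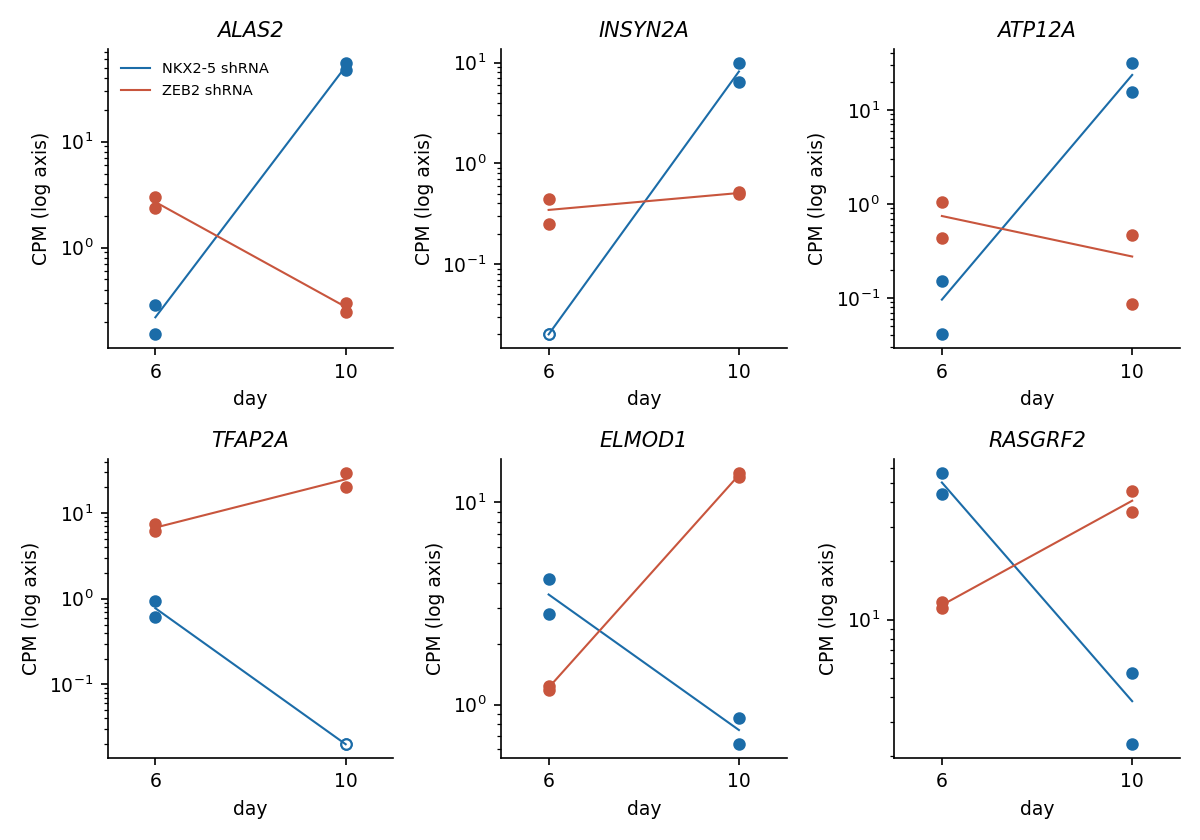
CPM of the 6 genes named for the interaction in each NKX2-5 shRNA and ZEB2 shRNA library at day 6 and day 10, on a log axis, with lines joining the means of 2 libraries and open symbols for 0 counts. ALAS2, INSYN2A and ATP12A are higher in ZEB2 shRNA cells at day 6 and in NKX2-5 shRNA cells at day 10, ELMOD1 and RASGRF2 cross the other way, and TFAP2A is higher in ZEB2 shRNA cells at both.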

How the data were processed

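RNA-seq of total RNA (TruSeq stranded, paired-end) was used from 4 day 10 libraries, with 2 WT day 10 and 4 day 6 libraries beside them. The deposited values are whole-number counts of reads, not normalized. The authors mapped reads to hg19 (GRCh37) with TopHat2 2.0.14, allowing 2 mismatches and 1 best hit, and counted them per RefSeq gene region with RSeQC. Of 41627 accessions, 40285 matched a symbol in the RefSeq gene table, and the row with the largest total stood for each of 23189 symbols. The members, the comparison and the gene lists were chosen with earlier results of these data known. Counts were fitted with edgeR 4.0.16 in R 4.3.3 (TMM, filterByExpr, quasi-likelihood F test, Benjamini-Hochberg), and SE was the log2 difference over the root of F. Scripts were tested on simulated counts. Named genes were the targeted genes, up to 4 called members of each list by mean CPM with the most abundant member that missed 5% FDR, the 10 largest rises and falls of at least 5 CPM, and up to 3 interaction genes each way; other members were named after their values were seen. Alternatives were RLE size factors, no TMM factors, no filter, DESeq2 1.42.0, the 4 libraries alone, another row rule, each library left out, and ZEB2 shRNA and WT replicates 1 and 2 with rows matched by a pair hidden Markov model on counts (posterior of at least 0.9, 95.5% of accessions). The matching was made against replicate 3 of ZEB2 shRNA and WT at day 10. GRCh37 positions are from GENCODE, and promoters from RefSeq (GRCh38.p14). Values of some list members are not reported here.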

Additional observations from a re-analysis of the deposited data

Results flagged for a closer look

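For 6 genes the difference between NKX2-5 shRNA and ZEB2 shRNA cells changed from day 6 to day 10 by the edgeR test of the interaction, called at 8-fold and 1% FDR. On the log2 scale, day 10 minus day 6, the interaction was 11.02 for ALAS2, 10.28 for INSYN2A and 9.547 for ATP12A, and -9.477 for TFAP2A, -5.708 for ELMOD1 and -5.502 for RASGRF2. INSYN2A had 0 counts in both NKX2-5 shRNA libraries at day 6 and 6.37 and 9.95 CPM at day 10, with 0.25 and 0.439 CPM in ZEB2 shRNA cells at day 6 and 0.497 and 0.516 CPM at day 10. ELMOD1 was at 4.2 and 2.81 CPM in NKX2-5 shRNA cells at day 6 and 0.637 and 0.861 CPM at day 10, against 1.18 and 1.24 CPM and 13.3 and 14 CPM in ZEB2 shRNA cells. ATP12A missed 5% FDR without ZEB2 shRNA day 6 replicate 1, and ELMOD1 with the matched ZEB2 shRNA replicates 1 and 2. These genes are the 3 largest in each direction among the 132 called with at least 5 CPM in 1 group.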

How the results depend on the processing

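Against the 331 genes called between the lines at day 10, DESeq2 called 622 in all, including 327 of the 331, the 4 compared libraries alone gave 84 and replicates 1 and 2 of ZEB2 shRNA and WT with matched rows 759, and 5% FDR without a fold threshold gave 3628. Leaving out 1 library gave 28 to 1023. For the interaction, against 132 called, DESeq2 called 371 in all, including 129 of the 132, all libraries of both days gave 253, including 119, all 4 matched replicates 67, replicates 1 and 2 alone 363 and 5% FDR 1859, and leaving out 1 library gave 1 to 597. The cause was not tested. RLE factors, no TMM factors, no filter and another row rule kept both counts within 1.5 times, and the median log2 difference of all genes was -0.141 without TMM factors. With the replicate number as a replicate block the interaction called 125 genes, 113 of them shared, and same-numbered libraries did not deviate together (correlations from -0.0681 to 0.0101). No paired analysis was possible for the day 10 comparison because replicates 1 and 2 were set against 3 and 4.

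Of 1523 values of 108 named genes, 26 in 10 genes reversed, and 58 genes passed 5% FDR in every setting. None of the 10 passed 5% FDR between the lines as reported. With all 4 matched replicates the log2 difference was -0.26 for GATA4, -0.22 for MYL9, -0.65 for ACTC1, -0.22 for NPR2, -0.66 for KRT8 and -0.14 for TNFRSF10B. With replicates 1 and 2 alone it was -0.58 for GATA4, -0.49 for MYL9, -1.36 for ACTC1, -0.26 for CAMK2D, -0.41 for NPR2, -1.15 for KRT8, -0.33 for ID2, -0.0199 for LIN28A and -0.40 for TNFRSF10B. Without TMM factors it was -0.13 for NPR2, -0.0542 for GATA6 and -0.0006166 for KRT8. Leaving out 1 library gave -0.21 to 0.49 for GATA4, -0.21 to 0.43 for MYL9, -0.0347 to 0.83 for CAMK2D, -0.0763 to 0.11 for NPR2, -0.0818 to 0.54 for LIN28A and -0.22 to 0.53 for TNFRSF10B.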
